A study of Homo sapiens with 12 samples.

Results

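The genes described here are those of cholesterol and fatty acid synthesis, and of the control of that synthesis, in U2OS cells. They were taken by symbol from a list of 29 genes, of which 28 had at least 1 probe among the 18665 gene symbols that the arrays cover (FDFT1 had none listed), and 41 probes carried their names. At the signal floor used for testing, 26 of the 29 were tested among 9808 genes. SREBF2 (uncorrected signal 69.1 to 91.6 across the arrays) and STARD4 (57.4 to 84.6) lay under the floor of 100 in every array, so nothing is said of their change. Of the 26, 23 were past the floor in all 6 groups of arrays, whereas MVK and FADS2 were past it in 2 groups and TM7SF2 in 1.

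U2OS is a human osteosarcoma line with a functional p53. The cells were transfected with a scramble siRNA (siCtl), with siRNAs against the co-repressor NCoR (siNCoR) or with siRNAs against its paralog SMRT (siSMRT), a mix of independent siRNAs being used for each gene. After 2 days they were left as untreated controls, called vehicle here, or given 100 µM cisplatin (CDDP), a DNA crosslinking drug, for 6 h. Each of the 6 groups holds 2 Illumina BeadChip arrays of biological replicates, 12 in all. The levels of the siRNA targets themselves were not analysed here, so the efficiency of the knock-down is not shown by these values, and off-target effects of the siRNAs were not tested. Array medians ran from 54.0 to 65.3 before normalization and replicate arrays correlated at 0.994 to 0.996. As for the identity of the cells, 8 of 10 mesenchymal and osteoblast markers were past the floor (COL1A2 and FN1 were not), beside 3 of 5 epithelial ones, 1 of 4 leukocyte ones, 0 of 4 hepatocyte ones and 1 of 4 adipocyte ones.

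Cells make cholesterol from acetyl-CoA through mevalonate, isoprenoid pyrophosphates, squalene and lanosterol, and they make fatty acids from the same precursor through malonyl-CoA. Most of the enzymes are transcribed under the SREBP factors, membrane-bound proteins that SCAP carries to the Golgi for cleavage when sterols are low and that the INSIG proteins hold in the endoplasmic reticulum when sterols are high. NCoR and SMRT are large scaffolds that bring histone deacetylase complexes to transcription factors, among them nuclear receptors such as LXR, which itself drives SREBF1.

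The promoters of these genes are known to pair a sterol regulatory element with a CCAAT box, where the factor NF-Y binds. Stretches are shown for 5 of the 6 members that were lower in siSMRT than in siNCoR cells both with vehicle and with CDDP. The other, SREBF1, has no CCAAT box in its promoter window. The stretches come from RefSeq (GRCh38.p14) and run 5′ to 3′ on the strand of the gene. They end 20 bases to either side of the outermost boxes, all upstream of the start of transcription, and capitals mark the CCAAT box or its reverse complement ATTGG.
HMGCS1, chr5:43313488-43313587, minus strand: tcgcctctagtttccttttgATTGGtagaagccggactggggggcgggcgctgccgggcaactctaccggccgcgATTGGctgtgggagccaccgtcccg
LSS, chr21:46228900-46228944, minus strand: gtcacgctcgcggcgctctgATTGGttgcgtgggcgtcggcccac
MSMO1, chr4:165327464-165327659, plus strand: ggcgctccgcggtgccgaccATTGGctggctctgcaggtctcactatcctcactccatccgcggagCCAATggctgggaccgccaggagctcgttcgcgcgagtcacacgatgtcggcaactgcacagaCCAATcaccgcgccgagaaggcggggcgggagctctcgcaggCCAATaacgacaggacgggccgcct
SC5D, chr11:121292695-121292739, plus strand: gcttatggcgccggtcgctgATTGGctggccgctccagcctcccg
SCD, chr10:100346984-100347071, plus strand: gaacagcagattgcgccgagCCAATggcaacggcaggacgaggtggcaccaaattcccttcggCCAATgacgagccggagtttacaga

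In the windows that these stretches come from, MSMO1 held 4 boxes, HMGCS1 and SCD 2 each, LSS and SC5D 1 each. Another HMGCS1 window held 0. Among members that passed no comparison of 2 groups, NSDHL and MVK held 5 each, EBP 3, HSD17B7 2, and CYP51A1, SCAP and FADS1 0. Windows of 300 bases (250 before the start and 50 after it) were at hand for 25 of the 29 members. CCAAT, sought on both strands, was in at least 1 window of 19 of these 25 (76.0%), against 39.7% of the 27305 genes with a window. The 6 without it were PMVK, CYP51A1, SREBF1, SCAP, NPC1 and FADS1. The letters TCACNCCAC, a strict form of the sterol regulatory element, were in the window of 1 of the 25, SREBF2, and of 1.39% of all genes, and neither motif contains the other. These are matches of letters, and the arrays do not measure what binds there.

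Most of the calls between siRNAs lay between siSMRT and siNCoR cells. With vehicle, 9 of the 26 tested members were lower in siSMRT than in siNCoR cells and 0 were higher, where 10.5% of all tested genes were lower and 8.34% higher. The 9 were the mevalonate enzyme HMGCS1, the post-squalene enzymes SQLE, LSS, MSMO1 and SC5D, the regulators SREBF1 and INSIG1, and the fatty acid enzymes ACACA and SCD. With CDDP, 7 were lower (HMGCS1, IDI1, LSS, MSMO1, SC5D, SREBF1 and SCD) and 1 higher (TM7SF2), against 8.91% and 7.28% of all tested genes. The median log2 fold change of the 26 was -0.19 with vehicle and -0.13 with CDDP, against 0.02 and 0.01 over all tested genes. Past the threshold means an adjusted p under 0.05 in limma, with Benjamini-Hochberg adjustment over all 9808 genes. These are levels in bulk RNA, in which fewer cells of a kind and less RNA per cell cannot be told apart. The count of 9 was 3 without the first siNCoR vehicle array, 4 without the first siSMRT vehicle array and 5 without the second. The count of 7 was 3 without the first array of either CDDP group and 4 without the second siSMRT CDDP array, and it was 3 with the arrays scaled by their medians. The lone member higher with CDDP was lost without the first siNCoR CDDP array, without either siSMRT CDDP array and under median scaling, and 3 members were higher with vehicle once the replicate number was a block in the fit, by which same-numbered arrays are compared with each other.

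**Figure D1:**
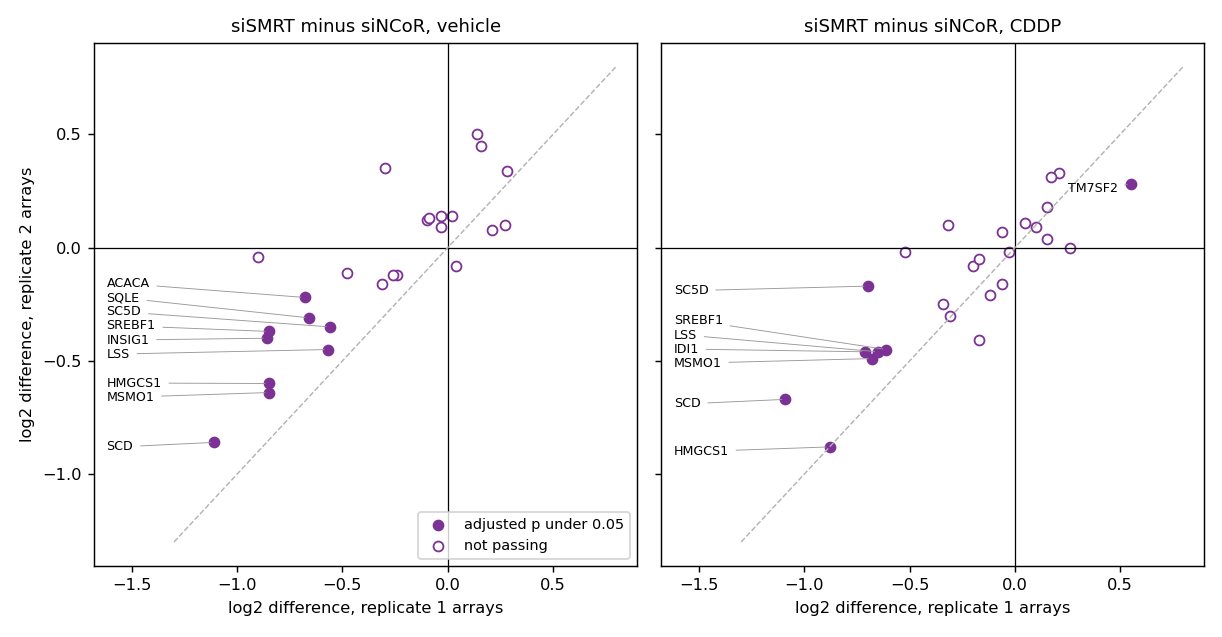
Log2 difference between siSMRT and siNCoR cells for the 26 tested members (points), from the replicate 1 arrays on the x axis and the replicate 2 arrays on the y axis, with vehicle on the left and CDDP on the right. Filled points have an adjusted p under 0.05 and the dashed line marks equal differences. All named points but TM7SF2 lie below 0 on both axes, with SCD at -1.11 and -0.86 with vehicle.

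HMGCS1 encodes the cytosolic HMG-CoA synthase, which opens the mevalonate pathway. Its log2 signal with vehicle was 9.56 and 9.33 in siCtl cells, 10.28 and 10.21 after siNCoR, and 9.43 and 9.62 in siSMRT cells. With CDDP it was 9.43 and 9.51 in siCtl, 10.17 and 10.06 in siNCoR, and 9.29 and 9.18 in siSMRT cells. All 4 siNCoR arrays thus stood above the other 8. The gene was 1.75-fold higher in siNCoR than in siCtl cells with vehicle (0.81 on the log2 scale, SE 0.108, limma adjusted p = 0.0017) and 1.56-fold higher with CDDP (0.64, adjusted p = 0.00535). Against siNCoR cells, siSMRT cells were at -0.72 with vehicle (adjusted p = 0.000895) and -0.88 with CDDP (adjusted p = 0.000299), and these 4 calls held without any one of the 12 arrays. Between siSMRT and siCtl cells the difference was 0.08 with vehicle (95% interval -0.15 to 0.32) and -0.24 with CDDP, neither past the threshold.

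SCD, the desaturase that makes oleate and palmitoleate, set the siSMRT cells apart. Its log2 signal with vehicle was 11.26 and 10.96 in siCtl, 11.65 and 11.29 in siNCoR, and 10.54 and 10.43 in siSMRT cells. With CDDP it was 11.46 and 11.30, then 11.71 and 11.40, then 10.62 and 10.73, so the 4 siSMRT arrays were below the other 8. SCD was 1.98-fold lower in siSMRT than in siNCoR cells with vehicle (-0.99, SE 0.146, limma adjusted p = 0.000836) and 1.84-fold lower with CDDP (-0.88, adjusted p = 0.0019), in each case also without any one array. Against siCtl cells it was lower by 0.63 with vehicle (adjusted p = 0.0144) and by 0.71 with CDDP (adjusted p = 0.00758). The first of these calls was lost without the first siCtl vehicle array or either siSMRT vehicle array (highest adjusted p = 0.129), the second without the first siCtl or the first siSMRT CDDP array (0.0599).

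MSMO1, the C4-methyl sterol oxidase, showed 10.09 and 9.93 in siCtl, 10.34 and 9.96 in siNCoR, and 9.49 and 9.32 in siSMRT cells with vehicle. With CDDP the values were 10.17 and 10.19, then 10.52 and 10.39, then 9.84 and 9.90. Both siSMRT arrays were below all others of their treatment. The gene was lower in siSMRT than in siNCoR cells by 0.75 with vehicle (SE 0.125, limma adjusted p = 0.00173) and by 0.59 with CDDP (adjusted p = 0.00764), and lower than in siCtl cells by 0.61 with vehicle (adjusted p = 0.0075). With CDDP the difference from siCtl cells was -0.31 and did not pass (limma adjusted p = 0.109). A second MSMO1 probe gave -0.86 and -0.93 against siNCoR and -0.52 and -0.97 against siCtl cells, with vehicle and CDDP in turn, all past the threshold. The call against siNCoR cells with vehicle held without any one array. The call with CDDP was lost without the first siNCoR or the first siSMRT CDDP array (adjusted p up to 0.0583), and that against siCtl cells without the first siCtl or the second siSMRT vehicle array (up to 0.0707).

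LSS, lanosterol synthase, and SQLE, squalene epoxidase, catalyze the steps that turn squalene into the first sterol. The log2 signal of LSS with vehicle was 8.01 and 7.91 in siCtl, 8.43 and 8.22 in siNCoR, and 7.86 and 7.77 in siSMRT cells. With CDDP it was 8.22 and 7.94, 8.54 and 8.42, and 7.89 and 7.96. The 4 siNCoR arrays were at or above the highest of the other arrays, 8.22. LSS was lower in siSMRT than in siNCoR cells by 0.51 with vehicle (SE 0.114, limma adjusted p = 0.00877) and by 0.56 with CDDP (adjusted p = 0.00605), the latter also without any one array and the former not without the first siNCoR or the second siSMRT vehicle array (up to 0.0806), and its second probe passed both tests (-0.43 and -0.43). SQLE stood at 10.24 and 10.21 in siCtl, 10.95 and 10.59 in siNCoR, and 10.29 and 10.27 in siSMRT cells with vehicle. It was higher in siNCoR than in siCtl cells (0.54, SE 0.131, limma adjusted p = 0.0336) and lower in siSMRT than in siNCoR cells (-0.49, adjusted p = 0.0228), and its second probe gave 0.54 and -0.41, both past the threshold. The first of these SQLE calls was lost without the first siNCoR vehicle array or any one siCtl or siSMRT vehicle array (highest adjusted p = 0.238), the second without the first siNCoR or either siSMRT vehicle array.

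SC5D, the lathosterol oxidase near the end of the pathway, had log2 signals of 9.34 and 9.49 in siCtl, 9.88 and 9.80 in siNCoR, and 9.32 and 9.45 in siSMRT cells with vehicle. With CDDP they were 9.80 and 9.67, 10.32 and 9.94, and 9.63 and 9.77. The siNCoR arrays were the highest with each treatment. The differences between siSMRT and siNCoR cells were -0.45 with vehicle (limma adjusted p = 0.0272) and -0.43 with CDDP (adjusted p = 0.0367). The former was lost without any one of the 4 arrays compared, the latter without the first siNCoR CDDP array or either siSMRT CDDP array.

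**Figure D2:**
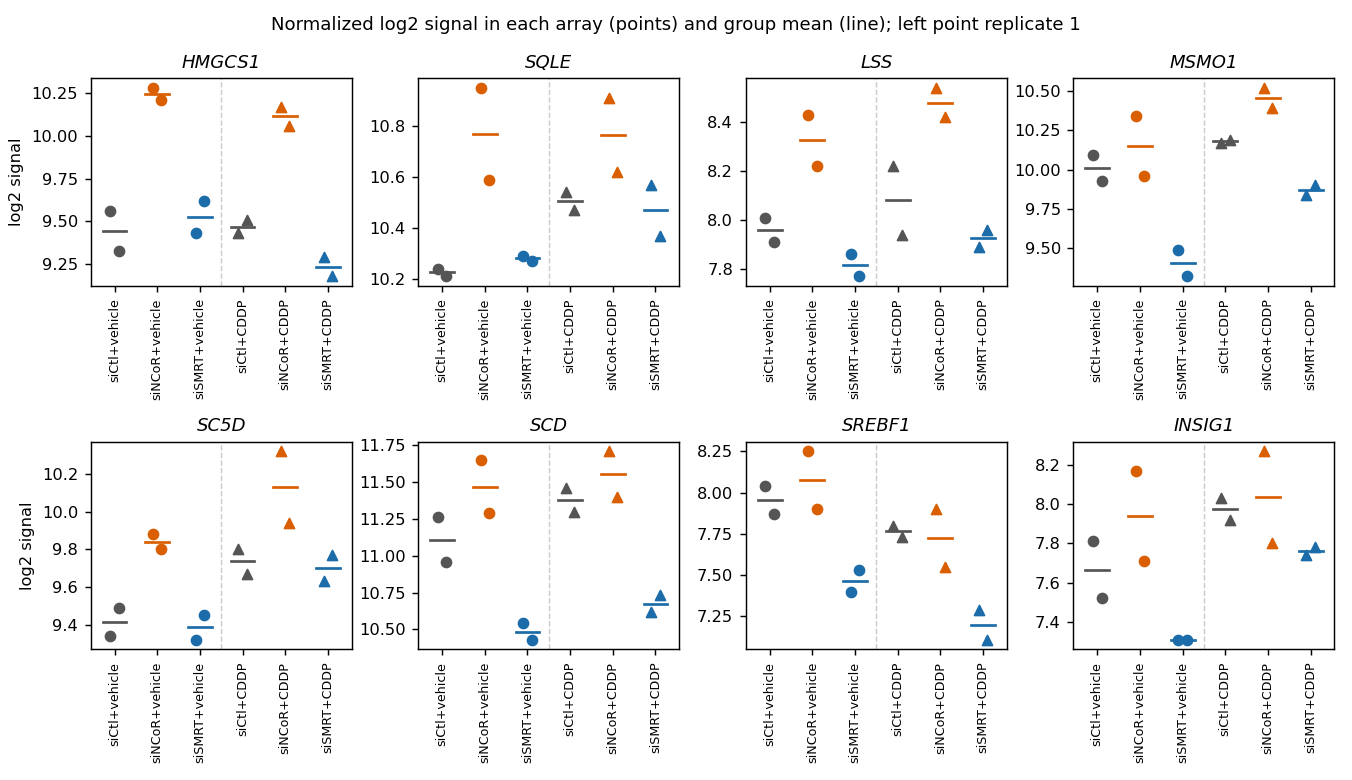
Normalized log2 signal (y axis, scaled per gene) of 8 members in each of the 12 arrays (points) with the mean of the 2 arrays of a group (lines); circles are vehicle and triangles CDDP arrays, in grey for siCtl, orange for siNCoR and blue for siSMRT. The siNCoR arrays are the highest for HMGCS1 and the siSMRT arrays the lowest for SCD.

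Among the regulators, SREBF1, which encodes SREBP-1, had log2 signals of 8.04 and 7.87 in siCtl, 8.25 and 7.90 in siNCoR, and 7.40 and 7.53 in siSMRT cells with vehicle. With CDDP they were 7.80 and 7.73, 7.90 and 7.55, and 7.29 and 7.11. Within each treatment both siSMRT arrays were below the other 4. SREBF1 was lower in siSMRT than in siCtl cells by 0.49 with vehicle (SE 0.141, limma adjusted p = 0.0342) and by 0.56 with CDDP (adjusted p = 0.0188), and lower than in siNCoR cells by 0.61 (adjusted p = 0.0109) and 0.53 (adjusted p = 0.0249). A second, dimmer SREBF1 probe did not pass any of these tests (-0.01, -0.43, -0.33 and -0.29 in the same order), so the calls rest on 1 probe. They were also lost without single arrays: the first against siCtl without any one vehicle array of either group, the second without either siCtl or the second siSMRT CDDP array, the first against siNCoR without the first array of either group and the last without the first siNCoR or either siSMRT CDDP array (highest adjusted p of all, 0.197).

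INSIG1, which retains the SCAP complex and is itself a target of SREBP, stood with vehicle at 7.81 and 7.52 in siCtl, 8.17 and 7.71 in siNCoR, and 7.31 and 7.31 in siSMRT cells. The siSMRT arrays were the lowest, and siNCoR and siCtl overlapped. The difference between siSMRT and siNCoR cells was -0.63 (SE 0.168, limma adjusted p = 0.0221), 0.86 lower in the first pair of arrays and 0.40 lower in the second. It did not pass without the first siNCoR or either siSMRT vehicle array (highest adjusted p = 0.186), and with CDDP it was -0.27 (95% interval -0.64 to 0.10). SCAP, the escort protein, passed no comparison.

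The other members that separated the corepressor siRNAs were single calls. IDI1, the isopentenyl diphosphate isomerase, was lower in siSMRT than in siNCoR cells with CDDP by 0.58 (SE 0.152, limma adjusted p = 0.0216), from arrays at 7.64 and 7.43 in siNCoR and 6.94 and 6.97 in siSMRT cells. ACACA, the acetyl-CoA carboxylase that commits carbon to fatty acids, was lower by 0.45 with vehicle (limma adjusted p = 0.0203), from 10.01 and 9.90 to 9.33 and 9.68, and this call was lost without either siNCoR or the first siSMRT vehicle array. It is named although it falls outside the 8 largest changes that were to be described, and was added after its values were seen, as was FDPS in siSMRT cells. TM7SF2, a sterol C14 reductase, was higher by 0.41 with CDDP (limma adjusted p = 0.0171), from 6.00 and 6.21 to 6.55 and 6.49. It passed the floor through the siSMRT CDDP arrays alone, the group in which it was highest, so this call is not read as support for anything. The IDI1 and TM7SF2 calls were lost without the first siNCoR or either siSMRT CDDP array.

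Against siCtl cells the 2 knock-downs gave few calls. With vehicle, siNCoR cells had 2 members higher (HMGCS1 and SQLE) and 0 lower, where 2.97% of all tested genes were higher and 2.29% lower. The count of 2 was 4 with the replicate block, and 1 without either siCtl vehicle array, either siSMRT vehicle array or the first siNCoR vehicle array. With CDDP, 1 was higher (HMGCS1) and 0 lower, against 3.49% and 3.09% of all tested genes. That count of 1 was 2 with the replicate block, without the first siCtl CDDP array or without the second siNCoR CDDP array. The median of the 26 was 0.15 with vehicle and 0.06 with CDDP, and it was 0.00 over all tested genes in each.

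The siSMRT cells with vehicle had 4 members lower than siCtl cells (SCD, MSMO1, FADS2 and SREBF1) and 1 higher (NPC1), where 8.54% of all tested genes were lower and 7.26% higher. With CDDP, 2 were lower (SCD and SREBF1) and 0 higher, against 9.4% and 7.89%, beside medians of -0.01 and -0.04 for the 26 and 0.01 over all tested genes. FADS2, the delta-6 desaturase, had log2 signals of 6.43 and 6.09 in siCtl and 5.57 and 5.72 in siSMRT cells with vehicle (-0.61, SE 0.188, limma adjusted p = 0.0446), but the groups past the floor were siCtl CDDP and siNCoR CDDP, and neither group compared here had both arrays past it (uncorrected signal 108.9 and 90.5 in siCtl, 70.0 and 75.3 in siSMRT cells). The FADS2 call is not read as support, the count of 4 is 3 without it, and the call was lost without 7 of the 12 arrays, taken out singly. FADS1, the delta-5 desaturase and its neighbour on chromosome 11, showed a difference of -0.48 (limma adjusted p = 0.0599). NPC1, which exports cholesterol from lysosomes, stood at 8.44 and 8.73 in siCtl and 9.03 and 9.02 in siSMRT cells (0.44, SE 0.113, limma adjusted p = 0.0228). This call was lost without the first siCtl or either siSMRT vehicle array. DHCR7 was higher in siSMRT cells with vehicle on its second probe (0.38, limma adjusted p = 0.0323). On the probe that stands for it the difference was 0.33 and did not pass (limma adjusted p = 0.0615). The count of 4 lower members was 0 without the first siCtl or the second siSMRT vehicle array and 1 without the first siSMRT vehicle array. The count of 2 with CDDP was 0 without the first siCtl CDDP array, 1 without any one of the other 3 arrays compared and 4 with the replicate block, and the block gave 3 members higher with vehicle.

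**Figure D3:**
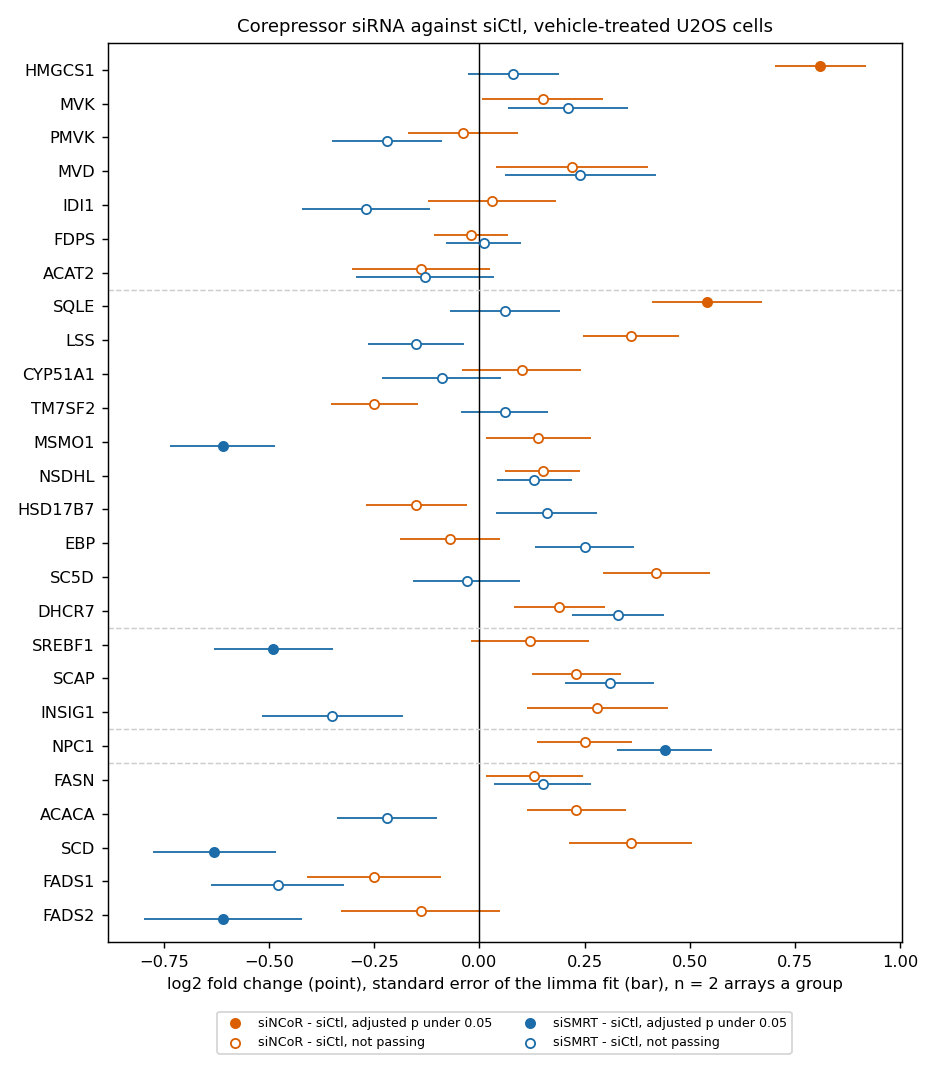
Log2 fold change of the 26 tested members in siNCoR (orange) and siSMRT (blue) cells against siCtl cells with vehicle (x axis), with bars of 1 standard error from the fit on 2 arrays a group; filled points have an adjusted p under 0.05. Dashed lines part the mevalonate, post-squalene, regulator, sterol traffic and fatty acid members. HMGCS1 at 0.81 and SQLE at 0.54 are the filled points of siNCoR cells, and SCD, MSMO1, FADS2, SREBF1 and NPC1 those of siSMRT cells.

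CDDP raised MVD and FDPS under all 3 siRNAs, and few members fell. How many of all tested genes rose under all 3 was not counted. The share of members called higher was near that of all tested genes in siCtl and siNCoR cells, so it is not read as a trait of the members. Of the 26, 4 were higher and 1 lower with CDDP in siCtl cells, where 18.2% of all tested genes were higher and 19.5% lower. In siNCoR cells 4 were higher and 0 lower (19.6% and 21.2% of all), and in siSMRT cells 8 were higher and 1 lower (21.3% and 21.6%). The median log2 fold change was 0.20, 0.18 and 0.26 in siCtl, siNCoR and siSMRT cells, against 0.03 over all tested genes in each, and 23, 19 and 19 of the 26 fold changes were above 0. Members higher thus made up 15.4%, 15.4% and 30.8% of those tested. The last share counts FADS2 and TM7SF2, which were past the floor in some groups only, and the 8 are 6 without them. With the replicate block the counts of higher members were 7, 8 and 13 in the same order, with 2 lower in siNCoR cells and 2 in siSMRT cells. Scaling the arrays by their medians gave 1, 0 and 3 higher and, in siNCoR cells, 2 lower. The siCtl count of 4 was 1 without the first CDDP or the second vehicle array, and its 1 lower member was lost without the first vehicle or the second CDDP array. The siNCoR count of 4 was 9 without the first vehicle array and 0 without the second. The siSMRT count of 8 was 2 and 0 without the first and second vehicle arrays, and 3 and 1 without the first and second CDDP arrays.

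MVD, the mevalonate diphosphate decarboxylase, and FDPS, which makes farnesyl diphosphate, were higher with CDDP under all 3 siRNAs. MVD went from 7.09 and 6.73 to 7.57 and 7.44 in siCtl, from 7.41 and 6.84 to 7.72 and 7.52 in siNCoR, and from 7.11 and 7.19 to 7.87 and 7.56 in siSMRT cells. No MVD array with vehicle reached the CDDP arrays of its own siRNA. Its log2 fold changes were 0.60, 0.50 and 0.56 (SE 0.18, limma adjusted p = 0.0208, 0.0437 and 0.0241). Those of FDPS were smaller at 0.27, 0.31 and 0.26 with a smaller error (SE 0.0889, limma adjusted p = 0.029, 0.0151 and 0.0324), from 8.26 to 8.40 across the 6 vehicle arrays and 8.58 to 8.68 across the 6 CDDP arrays, which do not overlap. Each of these 6 calls was lost under median scaling and without at least 2 single arrays of the groups compared, up to an adjusted p = 0.388 for MVD in siNCoR cells without the second siNCoR vehicle array.

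FASN, the fatty acid synthase, rose in siCtl cells (0.44, SE 0.115, limma adjusted p = 0.0102) and in siNCoR cells (0.38, adjusted p = 0.0195), from 11.84 and 11.81 to 12.31 and 12.22 in the former. In siSMRT cells it went from 12.04 and 11.91 to 12.23 and 12.23, a log2 fold change of 0.25 that did not pass. ACACA, which supplies the malonyl-CoA that FASN uses, went the other way, from 9.76 and 9.69 to 9.38 and 9.23 in siCtl cells (-0.42, SE 0.118, limma adjusted p = 0.0156). Its fold changes in siNCoR and siSMRT cells were -0.31 and -0.17 and did not pass. The siCtl call of FASN was lost without the first CDDP or the second vehicle array, that of ACACA without the first vehicle or the second CDDP array, and the FASN call in siNCoR cells without the first CDDP or the second vehicle array.

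DHCR7, the last reductase before cholesterol, rose from 8.68 and 8.65 to 9.13 and 9.14 in siCtl cells (0.47, SE 0.109, limma adjusted p = 0.00529), a call that held without any one array but not under median scaling. In siSMRT cells it rose from 9.13 and 8.86 to 9.26 and 9.44 (0.36, limma adjusted p = 0.0199, lost without the second array of either group). In siNCoR cells its fold change was 0.26 and did not pass (limma adjusted p = 0.0748). Its second probe gave 0.51, 0.33 and 0.39 in siCtl, siNCoR and siSMRT cells, all past the threshold. IDI1 rose in siNCoR cells from 7.12 and 6.70 to 7.64 and 7.43 (0.63, SE 0.152, limma adjusted p = 0.00623), and this call was lost without the second siNCoR vehicle array. SQLE did not pass on the probe that stands for it (0.28 in siCtl cells) but did on its second (0.48, limma adjusted p = 0.00919).

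In siSMRT cells the other members that rose were FADS2 (0.50), MSMO1 (0.47), INSIG1 (0.45), the phosphomevalonate kinase PMVK (0.42) and TM7SF2 (0.34), the last of which passed the floor only through the siSMRT CDDP arrays, with limma adjusted p from 0.00995 for MSMO1 to 0.0479 for FADS2. The uncorrected FADS2 signal was under the floor of 100 in both groups compared here (70.0 and 75.3 with vehicle, 95.1 and 91.9 with CDDP), and the gene was tested because its siCtl CDDP and siNCoR CDDP arrays were past it. The FADS2 and TM7SF2 calls are therefore not read as support, and the count of 8 is 6 without them. MSMO1, INSIG1, FADS2 and PMVK had their lowest of the 6 group means in the siSMRT vehicle arrays, which this comparison shares with those between siRNAs. Each of these 5 calls was lost without the second siSMRT vehicle array, with adjusted p over the single arrays left out reaching 0.0761 for MSMO1 and 0.202 for FADS2. The second MSMO1 probe gave -0.15 here, so that the rise of MSMO1 was not seen on both of its probes. HMGCS1 fell by 0.29 in siSMRT cells (SE 0.108, limma adjusted p = 0.0474), from 9.43 and 9.62 to 9.29 and 9.18, a call lost without 7 of the 12 arrays taken out singly.

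**Figure D4:**
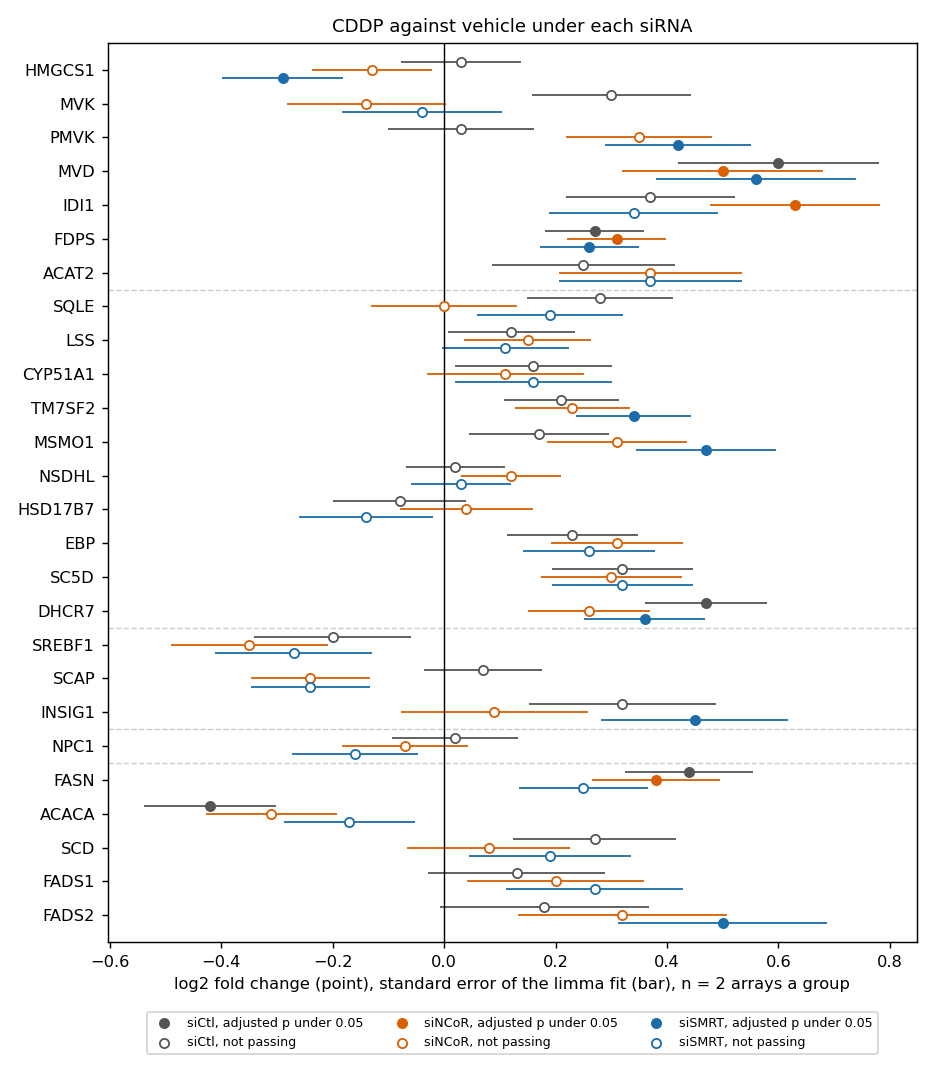
Log2 fold change with CDDP against vehicle of the 26 tested members in siCtl (grey), siNCoR (orange) and siSMRT (blue) cells (x axis), with bars of 1 standard error from the fit on 2 arrays a group; filled points have an adjusted p under 0.05. MVD and FDPS are filled in all 3, and ACACA and HMGCS1 are the filled points below 0.

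The response to CDDP was not shown to differ between siRNAs for any member. In limma 0 of the 26 passed the test of the difference for siSMRT against siCtl (0.0102% of all tested genes did, 1 gene), for siNCoR against siCtl (0.0%) or for siSMRT against siNCoR (0.0%). At an unadjusted p under 0.05 the counts were 0, 1 and 0 members, against 9.15%, 4.8% and 3.43% of all tested genes. The test for HMGCS1 in siSMRT against siCtl cells gave a difference of -0.32 on the log2 scale (95% interval -0.65 to 0.01, limma adjusted p = 0.556), beside 0.38 for PMVK and -0.30 for SCAP. In siNCoR against siCtl cells the smallest p belonged to MVK, the mevalonate kinase, at -0.45 (limma adjusted p = 0.977), before SCAP at -0.30 and PMVK at 0.31. Among the groups of this test, MVK had both arrays past the floor only in siCtl CDDP (uncorrected signal 108.4 and 110.5), where it was highest. The MVK value, and the count of 1 member at an unadjusted p under 0.05, are therefore not read as support. In siSMRT against siNCoR cells INSIG1 gave 0.36, IDI1 -0.29 and SQLE 0.20. The standard error of such a difference was 0.126 to 0.266 over the members, so differences of the sizes given were not detectable with 2 arrays a group.

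The members varied among themselves in how far the 6 group means lay apart. The span between the highest and lowest group mean was 1.07 log2 units for SCD, 1.06 for MSMO1, 1.01 for HMGCS1, 0.92 for IDI1 and 0.88 for SREBF1. At the other end it was 0.27 for NSDHL, a sterol dehydrogenase, 0.30 for CYP51A1, the lanosterol demethylase, and for MVK, and 0.31 for FDPS and HSD17B7. The highest of the 6 group means was in a siNCoR group for 15 of the 26, a siSMRT group for 7 and a siCtl group for 4. The lowest was in a siSMRT group for 12, a siCtl group for 8 and a siNCoR group for 6. The same counts over all tested genes were not taken, so these are not read as a trait of the members. Past the threshold in no comparison of 2 groups were MVK, ACAT2, CYP51A1, NSDHL, HSD17B7, EBP, SCAP and FADS1.

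Of the genes that act on SREBP, other than the members, INSIG2 differed between siRNAs with both treatments. Of 10 genes of SREBP transport, cleavage and INSIG turnover, 7 were tested, and 2 were lower in siSMRT than in siNCoR cells with each treatment, with 0 higher, where 10.5% of all tested genes were lower and 8.34% higher with vehicle and 8.91% and 7.28% with CDDP. These were INSIG2, the second retention protein, at -0.84 (SE 0.135, limma adjusted p = 0.00134) with vehicle and -0.72 (adjusted p = 0.00367) with CDDP, and ERLIN2, a scaffold of sterol-dependent degradation, at -0.40 and -0.36. INSIG2 was also lower in siSMRT than in siCtl cells (-0.58 with vehicle and -0.53 with CDDP, limma adjusted p = 0.014 and 0.0204). In response to CDDP, 0 of the 7 were higher and 2, 2 and 3 lower in siCtl, siNCoR and siSMRT cells. Among all tested genes 18.2%, 19.6% and 21.3% were higher and 19.5%, 21.2% and 21.6% lower. With CDDP the log2 fold changes of INSIG2 were -0.58, -0.65 and -0.52 in siCtl, siNCoR and siSMRT cells. Those of the COPII coat subunit SEC24D were -0.74, -0.48 and -0.59, and all 6 values were past the threshold. INSIG2 thus fell with CDDP under all 3 siRNAs, whereas INSIG1 fold changes were 0.32, 0.09 and 0.45. Against siCtl cells with vehicle, 1 of the 7 was higher and 1 lower in siSMRT cells (7.26% and 8.54% of all tested genes). In siNCoR cells 1 was higher and 0 lower (2.97% and 2.29%). UBE2G2, a ubiquitin-conjugating enzyme, was the higher gene in both knock-downs with vehicle (0.63 in siSMRT and 0.49 in siNCoR cells). Whether the calls of this list hold without single arrays is not given here.

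Of 24 other SREBP targets and lipid synthesis genes 19 were tested, and few passed between siRNAs. With vehicle 1 was lower (ACSS2, the cytosolic acetyl-CoA synthetase, -0.30) and 1 higher (TMEM97, 0.66, limma adjusted p = 0.000609) in siSMRT than in siNCoR cells. TMEM97 encodes the sigma-2 receptor and went opposite to HMGCS1, being lower in siNCoR than in siCtl cells (-0.41, limma adjusted p = 0.0287). With CDDP 0 were lower and 2 higher, TMEM97 (0.41) and TECR (0.30), the latter a reductase of very long chain fatty acid synthesis. CDDP moved 1, 1 and 2 of the 19 up and 2, 3 and 3 down in siCtl, siNCoR and siSMRT cells, where 18.2%, 19.6% and 21.3% of all tested genes rose and 19.5%, 21.2% and 21.6% fell. ELOVL6, which elongates palmitate, had log2 fold changes of -0.81, -0.70 and -0.69 (limma adjusted p = 0.000102, 0.000277 and 0.000307), and SLC25A1, the mitochondrial citrate carrier, rose by 0.56, 0.57 and 0.49.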

How the data were processed

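The deposited intensity values were exported from BeadStudio by the authors (version not given in the sources used here), 48803 probes an array, without background subtraction or normalization (lowest signal 30.4 to 38.9). A second deposited intensity table, which the authors made with Corgon and multi-loess normalization, served as an alternative. With limma 3.58.1 (R 4.3.3) the background was corrected by normexp at an offset of 16, the arrays were quantile normalized and log2 values taken. Of the probes, 27578 have 1 gene in the platform annotation, 13 several and 21212 none listed. Probes entered the fit if the uncorrected signal, after quantile normalization, exceeded 100 in both arrays of at least 1 group (14801 probes, 12638 with 1 gene), and the brightest kept probe stands for its gene (2333 genes had several). The model held 1 coefficient per group, with 6 residual degrees of freedom and Benjamini-Hochberg adjustment over 9808 genes. Values and tests were given for up to 8 members a comparison with the largest change among those past 0.05 and moving the same way in both pairs of arrays, and for the 3 of smallest p where none passed. The members, lists and tests were chosen with earlier results of these data known. Same-numbered arrays deviated together in 15 of 15 pairs of groups (r = 0.203 to 0.42), so the replicate number was a block in an alternative fit. Other alternatives changed the offset (50), background step, scaling, floor, probe choice and arrays, one at a time. The fit was tested on simulated data. Counts were taken in Python 3.11.15 using pandas 2.3.3 with numpy 2.4.6, and matplotlib 3.10.9 drew the plots. The number of arrays limits the precision, and HSD17B7 has near-identical copies that its probe may not tell apart. Some items are not reported here.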

Additional observations from a re-analysis of the deposited data

How the results depend on the processing

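None of the 54 values of single members reversed its sign under any alternative. Of the 45 calls among them, 9 held without any one array: DHCR7 with CDDP in siCtl cells, HMGCS1 in siNCoR against siCtl and in siSMRT against siNCoR cells with each treatment, SCD with each treatment and MSMO1 with vehicle and LSS with CDDP in siSMRT against siNCoR cells. Calls were lost under median scaling (22), no filter on low signal (19, where more genes are tested), only the arrays compared (10), the authors' processed values (7), the mean over probes (5, of which 4 were SREBF1), offset 50 (2), every probe (1), no background correction (1) and a floor in at least 1 array (1), and 0 with the replicate block. Median scaling moved the median of all genes by more than 0.1, to -0.116 for siSMRT against siCtl with vehicle, -0.11 for CDDP in siNCoR cells, and 0.127 and 0.173 for the siSMRT differences in response against siCtl and siNCoR.

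Counts of members that moved by more than 1.5 times were as follows, and the cause was not tested. With CDDP in siCtl cells the 4 higher became 1 under median scaling and 7 with the replicate block. In siNCoR cells the 4 higher became 0 under median scaling, 8 with the block, 7 with the mean over probes, 2 with no filter and 1 with only the arrays compared, and the 0 lower became 2 under median scaling, the block and the authors' values and 1 with the mean over probes, no background correction and offset 50. In siSMRT cells the 8 higher became 3 under median scaling, 13 with the block, and 4 with no filter and with the authors' values, and the 1 lower became 2 with the block and 0 with median scaling, no filter, every probe and only the arrays compared. For siSMRT against siCtl cells with vehicle the 1 higher became 0 with median scaling and no filter, 2 with offset 50 and the mean over probes and 3 with the block, and with CDDP the 2 lower became 4 with the block. For siNCoR against siCtl cells with vehicle the 2 higher became 1 with median scaling, no filter and only the arrays compared and 4 with the block, and with CDDP the 1 higher became 2 with offset 50 and the block. For siSMRT against siNCoR cells the 0 higher with vehicle became 3 with the block, and with CDDP the 1 higher became 0 with median scaling, no filter and only the arrays compared, and the 7 lower became 3 with median scaling.

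Leaving out 1 array at a time, the counts with CDDP ranged from 1 to 5 higher and 0 to 1 lower in siCtl, 0 to 9 higher and 0 to 1 lower in siNCoR, and 0 to 8 higher and 0 to 2 lower in siSMRT cells. They ranged from 0 to 1 higher and 0 to 4 lower for siSMRT against siCtl with vehicle and 0 to 2 lower with CDDP, from 1 to 3 higher for siNCoR against siCtl with vehicle and 1 to 2 with CDDP, and for siSMRT against siNCoR from 0 to 1 higher and 3 to 9 lower with vehicle and 0 to 1 higher and 3 to 7 lower with CDDP. Where a group was left with 1 array, that array was assumed to vary like the other groups. These fits had no replicate block, so a deviation shared by same-numbered arrays entered the fold change of such a group. How far calls were lost through this imbalance was not tested. The tests of a difference in response gave 0 members under every alternative run.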

Other observations

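Neighbouring lipid pathways were read from lists of fixed symbols. Of 16 genes of LXR and sterol efflux, 14 were tested, and 3 were lower and 0 higher in siSMRT than in siNCoR cells with vehicle: ABCA1, the cholesterol exporter (-1.13, SE 0.123, limma adjusted p = 0.000115), LPCAT3, a phospholipid acyltransferase (-0.57), and SMPDL3A, a phosphodiesterase (-0.41). Over all tested genes 10.5% were lower and 8.34% higher. With CDDP 1 of the 14 was lower (ABCA1, -0.57) and 0 higher, against 8.91% and 7.28%. ABCA1 was also lower in siSMRT than in siCtl cells (-0.78 with vehicle, -0.48 with CDDP, limma adjusted p = 0.00193 and 0.0202). With vehicle, 1 of the 14 was higher and 2 lower than in siCtl cells after siSMRT, and 1 and 0 after siNCoR. The shares of all tested genes were 7.26% and 8.54% after siSMRT and 2.97% and 2.29% after siNCoR. NCEH1, a cholesteryl ester hydrolase, was higher in both knock-downs with vehicle (0.51 in siNCoR and 0.42 in siSMRT cells). In response to CDDP, 2 of the 14 were higher in each of siCtl, siNCoR and siSMRT cells, and 4, 3 and 3 were lower. Among all tested genes 18.2%, 19.6% and 21.3% were higher and 19.5%, 21.2% and 21.6% lower. The median log2 fold change of the 14 was -0.03, -0.06 and -0.01, against 0.03 over all tested genes. The log2 fold changes of the receptor partner RXRA were -1.88, -1.75 and -1.78 in siCtl, siNCoR and siSMRT cells. Those of ABCA1 were -0.82, -1.08 and -0.52, and those of MYLIP, a ligase for lipoprotein receptors, 0.65, 0.74 and 0.86, all past the threshold.

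Of 16 genes of fatty acid oxidation and PPAR targets, 10 were tested. With CDDP 2, 4 and 5 were higher in siCtl, siNCoR and siSMRT cells and 0 lower in each. Over all tested genes 18.2%, 19.6% and 21.3% were higher and 19.5%, 21.2% and 21.6% lower. The fatty acid binding protein FABP5 rose by 0.71, 0.70 and 0.47, and it was also higher in both knock-downs with vehicle (0.79 in siSMRT and 0.43 in siNCoR cells). In each knock-down with vehicle 1 of the 10 was higher than in siCtl cells and 0 lower. Among all tested genes 7.26% were higher and 8.54% lower in siSMRT cells, and 2.97% and 2.29% in siNCoR cells. CPT2, a carnitine palmitoyltransferase, rose by 0.51, 0.33 and 0.51. Of 11 genes of the isoprenoid branch, 8 were tested, and with CDDP 0 passed in siCtl or siNCoR cells (limma). In siSMRT cells 1 was higher and 2 lower, against 21.3% and 21.6% of all tested genes. In the tests of a difference in response between siRNAs 0 of the 8 passed. Between siSMRT and siNCoR cells 1 of the 8 was higher and 1 lower with vehicle, against 8.34% and 10.5% of all tested genes. With CDDP 1 was higher and 0 lower, against 7.28% and 8.91%. The higher gene was COQ2, of ubiquinone synthesis, by 0.48 with vehicle and 0.37 with CDDP.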
